A study of Mus musculus with 4 samples.

Results

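The genes described here encode the integrins and the laminins of the mouse. They were taken from the RefSeq gene table of assembly GRCm38.p6 by symbol, as every protein-coding gene named Itga or Itgb with a number, 2b or the letter d, e, l, m, v or x, or Lama, Lamb or Lamc with a number. The rule found 37 of 21887 protein-coding genes outside the mitochondrial chromosome: 18 integrin alpha, 8 integrin beta, 5 laminin alpha, 3 laminin beta and 3 laminin gamma genes. Open chromatin was measured by ATAC-seq, an assay that reads where the Tn5 transposase can cut and tag DNA, in hair follicle stem cells from back skin of female mice at postnatal day 30. The knockout mice carried K14-H2BGFP, K14Cre and Foxc1 fl/fl, and the control mice carried K14-H2BGFP and Foxc1 fl/fl without Cre. Both genotypes therefore share the floxed alleles and the reporter, and the K14 (keratin 14) promoter, which is active in basal epithelial cells, drives Cre and reporter. Cells were sorted for the GFP reporter, CD34 and CD49f and against Sca-1. CD49f is the protein product of Itga6, so that this gene's product was itself used to choose the cells. The number of mice behind a library is not stated in the labels.

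Each genotype was 1 library sequenced in 2 runs, but the values used here are 1 list of 74777 accessible regions (peaks) for the whole series. No region carries a genotype, a score or a read count, so no value could be given per sample, knockout and control could not be compared, and the read depth behind a peak is unknown. The results below are counts and widths of peaks, given for the integrin and laminin genes and then for all protein-coding genes, with no test, because genes of 1 list are not replicates. Peak width, with a median of 587 bp over the list, is the only size measure. The sorted identity was checked on marker genes: all 7 hair follicle stem cell markers (Cd34, Sox9, Lhx2, Nfatc1, Tcf7l1, Lgr5 and Krt15) had a peak within 1 kb of a gene end, against 57.6% of all protein-coding genes. So did 3 of 4 basal keratinocyte markers, all but Trp63, which held 10 peaks inside the gene. The same held for 2 of 6 T cell and macrophage markers, Cd68 and Csf1r, with none at Ptprc, Cd3e, Cd3d or Cd207. It held for 0 of 3 platelet markers (Pf4, Gp9 and Gp1ba). It also held for 3 of 5 fibroblast, 2 of 4 endothelial and 3 of 5 melanocyte markers, shares near that of all protein-coding genes. A peak inside the gene, away from its ends, was present in 5 of 7 stem cell, 3 of 4 basal keratinocyte and 3 of 4 endothelial markers. The same was true of 2 of 5 melanocyte, 1 of 5 fibroblast, 0 of 6 T cell and macrophage and 0 of 3 platelet markers. Over all protein-coding genes the share with an inside peak was 36.7%. The product of Cd34 was itself a gate of the sort. In such bulk data, few cells of another type and weak accessibility in all cells cannot be told apart, and the part of other cells in the peaks described below was not tested.

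Integrins are receptors made of an alpha and a beta chain that tie a cell to the matrix outside it, and laminins are matrix proteins made of an alpha, a beta and a gamma chain that form the basement membrane on which basal keratinocytes and bulge stem cells sit. In skin epithelium the pair of Itga6 and Itgb4 products sits in hemidesmosomes and binds laminin-332, which holds the products of Lama3 and Lamb3. Other integrins, such as those that pair with the product of Itgb2, belong to leukocytes, and that of Itga2b and Itgb3 to platelets. The 37 genes were put into 3 lists by where their products are known to act: 17 genes of skin epithelium, 10 of leukocytes and platelets, and 10 others of mainly mesenchyme, muscle, nerve, vessel or embryo. These lists were drawn up with earlier results of the same data known.

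Promoter sequences (250 bases before to 50 after a RefSeq start, build GRCm38.p6, credited to RefSeq) were found for 23 of the 37 genes, with 26 windows in all. The windows of Lamb3 and Itga2b are shown by the rule for named genes. That rule also named Itga6, Itgb4 and Itgad, for which no window was found. Those of Itgav, Itgb6 and Itgax were added after their values were seen, since they show starts that lie away from the outer gene bound (Itgav and the inner window of Itgb6) and starts with no peak within 1 kb (the outer window of Itgb6, and Itgax). Sequences run 5′ to 3′ on the gene's strand, and capitals mark matches, on either strand, to the words searched.
Lamb3, outer start (chr1:193301744-193302043, plus strand, under a peak): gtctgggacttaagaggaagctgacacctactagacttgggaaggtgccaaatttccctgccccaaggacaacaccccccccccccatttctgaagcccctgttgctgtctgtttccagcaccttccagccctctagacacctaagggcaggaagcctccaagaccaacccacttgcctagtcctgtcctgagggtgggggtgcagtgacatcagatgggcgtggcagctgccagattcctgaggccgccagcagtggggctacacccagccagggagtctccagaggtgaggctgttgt
Lamb3, inner start (chr1:193301993-193302292, plus strand, under a peak): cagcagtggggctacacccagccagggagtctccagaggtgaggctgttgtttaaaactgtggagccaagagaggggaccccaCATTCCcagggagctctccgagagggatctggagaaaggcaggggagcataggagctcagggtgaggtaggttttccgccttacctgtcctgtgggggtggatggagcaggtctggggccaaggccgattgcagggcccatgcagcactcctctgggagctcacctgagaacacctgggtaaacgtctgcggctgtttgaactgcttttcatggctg
Itgav (chr2:83724147-83724446, plus strand, under a peak): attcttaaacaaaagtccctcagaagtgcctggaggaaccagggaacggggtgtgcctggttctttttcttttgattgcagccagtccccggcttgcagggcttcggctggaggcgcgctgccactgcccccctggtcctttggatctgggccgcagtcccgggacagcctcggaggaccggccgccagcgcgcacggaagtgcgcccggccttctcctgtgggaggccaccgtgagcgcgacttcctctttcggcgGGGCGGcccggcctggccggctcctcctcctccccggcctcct
Itgb6, inner start (chr2:60673644-60673943, minus strand, under a peak): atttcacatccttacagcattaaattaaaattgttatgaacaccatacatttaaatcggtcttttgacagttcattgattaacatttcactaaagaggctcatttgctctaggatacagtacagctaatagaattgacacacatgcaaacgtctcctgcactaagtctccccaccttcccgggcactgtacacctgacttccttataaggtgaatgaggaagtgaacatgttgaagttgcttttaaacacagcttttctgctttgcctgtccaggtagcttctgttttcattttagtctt
Itgb6, outer start (chr2:60722554-60722853, minus strand, no peak within 1 kb): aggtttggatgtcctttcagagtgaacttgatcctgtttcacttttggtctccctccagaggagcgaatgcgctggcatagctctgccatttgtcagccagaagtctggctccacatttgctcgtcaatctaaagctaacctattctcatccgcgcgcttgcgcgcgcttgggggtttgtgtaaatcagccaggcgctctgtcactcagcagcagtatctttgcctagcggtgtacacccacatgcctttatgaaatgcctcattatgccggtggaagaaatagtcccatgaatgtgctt
Itga2b (chr11:102469834-102470133, minus strand, no peak within 1 kb): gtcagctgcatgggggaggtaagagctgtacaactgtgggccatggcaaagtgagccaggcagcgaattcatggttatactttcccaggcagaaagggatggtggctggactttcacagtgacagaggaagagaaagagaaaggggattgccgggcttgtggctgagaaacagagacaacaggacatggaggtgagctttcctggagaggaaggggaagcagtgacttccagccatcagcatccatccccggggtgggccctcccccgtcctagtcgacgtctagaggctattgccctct
Itgax (chr7:128129300-128129599, plus strand, no peak within 1 kb): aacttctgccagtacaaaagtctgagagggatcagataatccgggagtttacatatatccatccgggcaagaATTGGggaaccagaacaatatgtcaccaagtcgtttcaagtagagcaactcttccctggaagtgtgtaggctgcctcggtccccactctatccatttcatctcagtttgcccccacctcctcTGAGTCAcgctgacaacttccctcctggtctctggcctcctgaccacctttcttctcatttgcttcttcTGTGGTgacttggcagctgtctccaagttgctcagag

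The words searched on both strands were GTAAACA for forkhead factors, TGACTCA for AP-1 and also TGAGTCA for AP-1, GGGCGG for the GC box, GGAATG for TEAD factors, TGTGGT for RUNX factors, ACAATG for SOX factors, TAATTA for LIM homeobox factors and CCAAT for the CCAAT box. The windows of Lamb3 overlap each other. In the windows printed, the inner one of Lamb3 held 1 TEAD word and the outer one none, Itgav 1 GC box, and Itgax 1 word each for the CCAAT box, AP-1 and RUNX, with no overlap among them, while Itga2b and both windows of Itgb6 held none. Over the 26 windows the GC box was found in 12 (46.2%), the same share as in all 21263 promoter windows of protein-coding genes (46.2%). The CCAAT box was in 4 (15.4%, against 38.2% of all windows), TEAD words in 3 (11.5%, against 13.6%), RUNX words in 3 (11.5%, against 15.0%), AP-1 words in 2 (7.69%, against 4.66%; Itga9 and Itgax) and the SOX word in 1 (3.85%, against 11%; Itga8). Forkhead and LIM homeobox words were in 0 of the 26 windows, and in 3.01% and 4.53% of all windows. A word match in 300 bases is a description of these letters only.

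Most epithelial integrin and laminin genes had an accessible end, and most leukocyte and platelet integrin genes did not. A gene end is counted as accessible when a peak shares at least 1 base with the 1 kb on either side of its lower or upper bound. Of the 37 genes, 26 (70.3%) had such a peak, against 57.6% of all protein-coding genes and 66.2% of the 13576 that are at least as long as the shortest of the 37 (10684 bp). By list, an end peak was present at 15 of 17 epithelial genes (88.2%), 3 of 10 leukocyte and platelet genes (30.0%) and 8 of 10 other genes (80.0%). The count in the leukocyte and platelet list became 5 of 10 with windows of 2500 bp, against 63.5% of all protein-coding genes. It was 1 of 10 with only peaks of at least the list's median width, against 51.6%. That in the other list became 5 of 10 without peaks at the end of another gene, against 36.8%. Among the 11 laminin genes 10 had an end peak (90.9%), compared with 16 of 26 integrin genes (61.5%). All 10 leukocyte and platelet genes are integrin genes, so this contrast overlaps with that by list. Of the 26 genes, 23 had 1 end peak, and Itgb3 and Lamb2 had peaks at both ends.

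**Figure D1:**
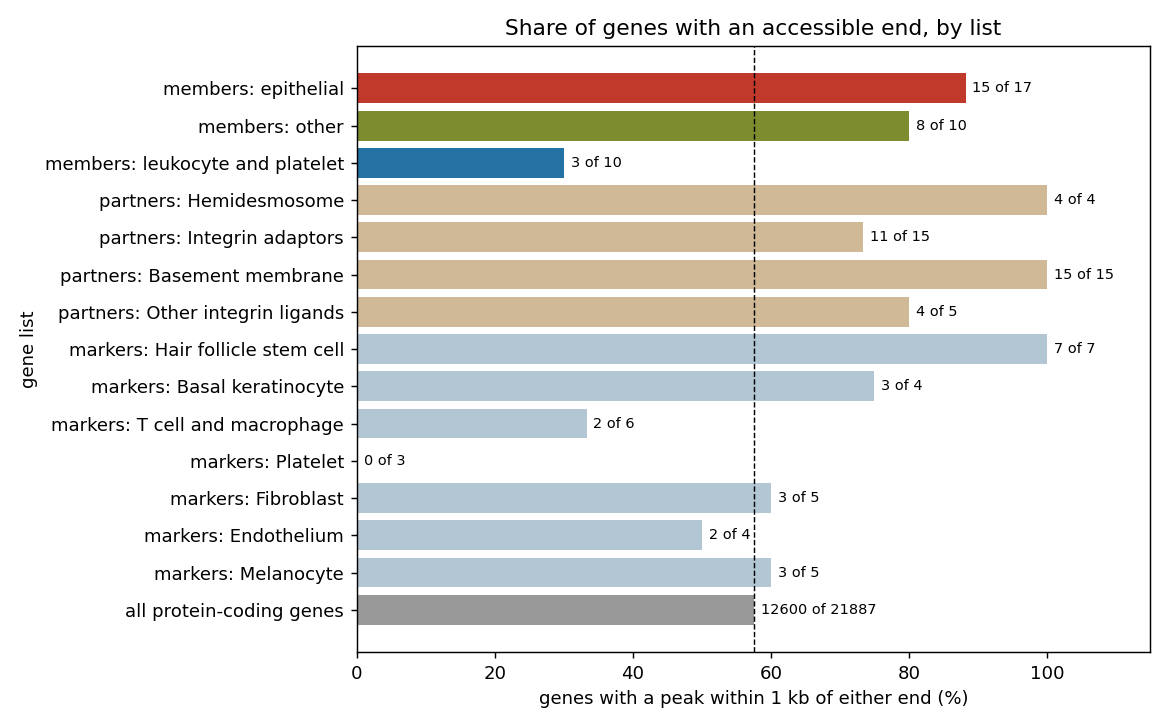
Share of genes (%) with a peak within 1 kb of either end, with the count beside each bar, for the 3 lists of integrin and laminin genes, 4 lists of partner genes, 7 lists of cell type markers and, at the bottom, all protein-coding genes (dashed line at 57.6%). Epithelial members reach 88.2% and leukocyte and platelet members 30.0%.

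The hemidesmosome integrin genes both had a peak at their lower-coordinate end. End peaks of all protein-coding genes had a median width of 1190 bp and an upper quartile of 1690 bp. Itga6 spans chr2:71786886-71858427 and Itgb4 chr11:115974725-116008412 (mm10, as are all positions below). No RefSeq start was found for either gene, so whether these end peaks lie at a start is not known here. At Itga6, the alpha chain used in the sort, a peak of 1464 bp covered that end (chr2:71786302-71787765), and at Itgb4, its beta partner, the end peak spanned 2695 bp (chr11:115974241-115976935). They differed in their interiors: Itga6 held 6 inside peaks over 71.5 kb, 3 of them at least 1000 bp wide and the widest 1643 bp (chr2:71804967-71806609), whereas Itgb4 held 0 over 33.7 kb. Outside the gene the order was the other way round, with 3 peaks within 50 kb at Itga6 and 10 at Itgb4, of which only 2 and 1 lay nearer to that gene's end than to any other protein-coding gene end. The widest outside peaks spanned 1682 bp, with its midpoint 47603 bp below Itga6 (chr2:71738443-71740124), and 1419 bp, 3958 bp below Itgb4 (chr11:115970058-115971476).

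Genes of the integrins that anchor keratinocytes outside hemidesmosomes were in most cases accessible at their RefSeq start. Itgb1 spans chr8:128685654-128733579, Itga3 chr11:95044475-95076844 and Itga2 chr13:114833081-114932100. Itgb1, the common beta chain of most laminin and collagen receptors, had a peak of 2095 bp over its start (chr8:128684686-128686780), 4 inside peaks (widest 1040 bp, chr8:128689984-128691023) and 7 peaks outside, the widest being chr8:128666444-128667520. All 7 of these outer peaks had an Itgb1 end as their nearest protein-coding end. Itga3, the alpha chain of a laminin receptor, has 2 RefSeq starts in the table. The outer lay under a peak of 1019 bp (chr11:95076154-95077172) and the inner lay 333 bp from a peak of 1468 bp (chr11:95069531-95070998), the widest of its 3 inside peaks. Its widest outside peak, of 2030 bp (chr11:95040500-95042529), was also within 1 kb of an end of Pdk2. Itga2, the alpha chain of a collagen receptor, had an end peak of 3274 bp at its start (chr13:114929360-114932633) and 4 inside peaks of at most 753 bp (chr13:114918011-114918763). Its widest outside peak (chr13:114945139-114946886) lay in the ground towards Itga1, and 8 peaks between and around these neighbours were counted for both genes. Itga9, the alpha chain of a receptor for tenascin and other ligands, had a peak of 758 bp at its lower bound, but its RefSeq start in the promoter table lies 104983 bp inside that bound and 18165 bp from the nearest peak. It held 3 inside peaks over 294 kb and had 5 outside.

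At Itgav and Itgb6, the 2 epithelial genes without an end peak, a RefSeq start inside the gene bounds was accessible. Itgav spans chr2:83722303-83806917 and Itgb6 chr2:60598292-60722603. Both chains bind matrix proteins, and as a pair they are known in keratinocytes for activating latent TGF-beta. The start of Itgav lies 2094 bp inside the lower bound, under a peak of 2347 bp (chr2:83723774-83726120) that began 1471 bp from that bound. This was the widest of 11 inside peaks in the 84.6 kb gene, the farthest with its midpoint 49147 bp from that bound, and 8 more lay outside (widest 1305 bp, chr2:83673147-83674451). At Itgb6 the outer start lay 1969 bp from the nearest peak, and the inner start, 48910 bp further in, lay under a peak of 2782 bp. Itgb6 held 13 inside peaks over 124 kb, 10 of which were at least 1000 bp wide, with a median width of 1580 bp. Its widest, of 6870 bp (chr2:60691732-60698601), was the widest peak counted for any of the 37 genes, and it also lay within 1 kb of an end of the provisional gene Gm33436. Only 4 peaks lay outside Itgb6 within 50 kb, the widest 750 bp (chr2:60583421-60584170). Itgb5 and Itgb8, which besides Itgb1 are further beta partners of Itgav in this list, had end peaks over their starts. The peaks spanned 1627 and 3473 bp, and the genes held 8 and 6 inside peaks and had 1 outside peak each.

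**Figure D2:**
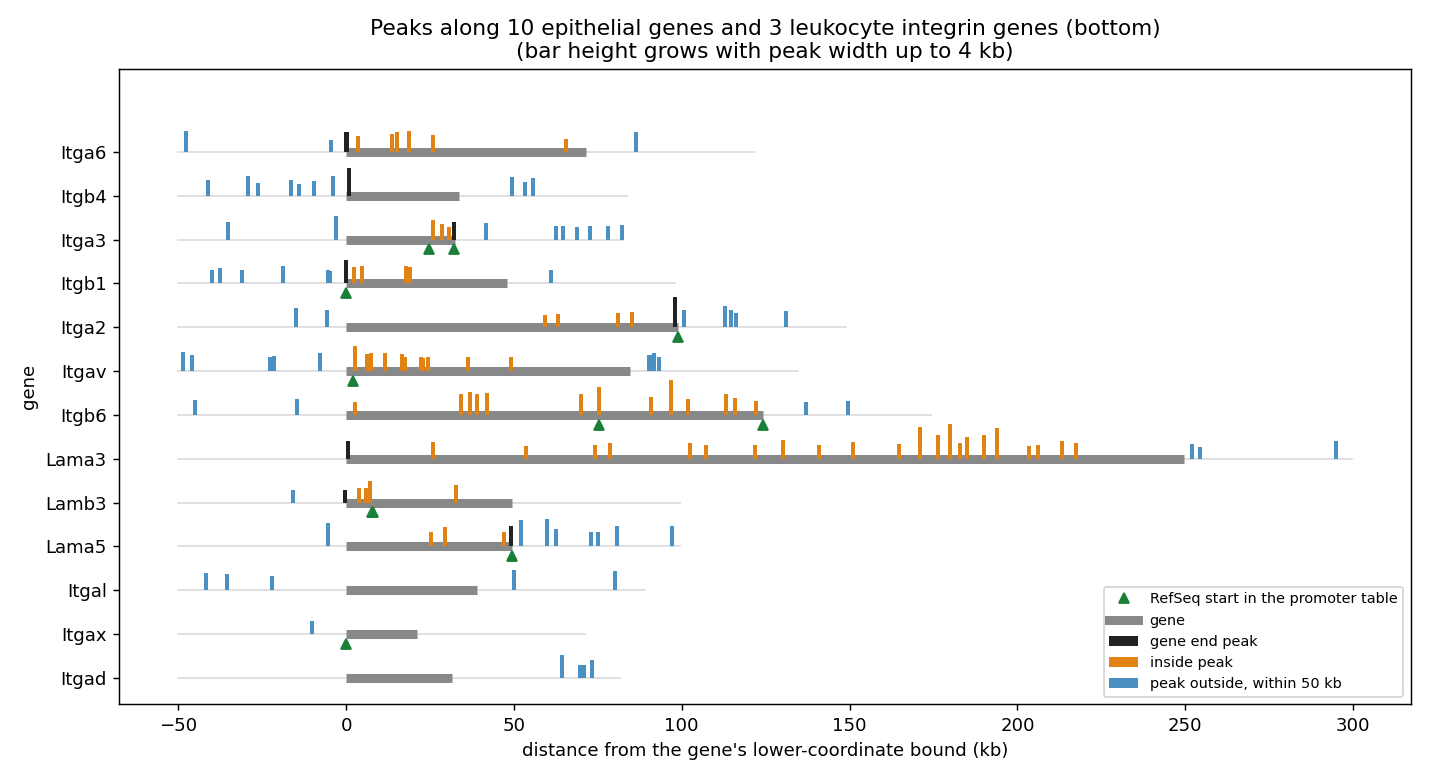
Peaks along 10 epithelial genes and, at the bottom, 3 leukocyte integrin genes, by distance in kb from the gene's lower-coordinate bound; thick lines are genes, thin lines the 50 kb on either side, bars are peaks (height grows with width up to 4 kb) and triangles are RefSeq starts where the promoter table gives them. Itgb6 and Itgav have no end peak but peaks over a start inside their bounds, and Itgal, Itgax and Itgad have no end or inside peak.

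Lama3 and Lamb3, which encode chains of laminin-332, were both accessible, each in its own way. Lama3 spans chr18:12333417-12583013 and Lamb3 chr1:193294353-193343878. Lama3 had 22 inside peaks over 250 kb, the most of the 37 genes, with 8 of at least 1000 bp, besides an end peak of 1076 bp (chr18:12333412-12334487). Its widest inside peak, of 4483 bp (chr18:12511213-12515695), had its midpoint 69559 bp from the nearer bound, within a run of 12 peaks over 53.6 kb (chr18:12497663-12551250) that lies wholly inside the gene. Only 3 peaks lay outside, the widest 1052 bp (chr18:12627819-12628870). Lama3 is known to make a long and a short chain from separate promoters. At Lamb3 the end peak was only 201 bp wide (chr1:193294046-193294246), and the 2 RefSeq starts lay 7641 and 7890 bp inside that bound under a peak of 1747 bp (chr1:193300712-193302458). Lamb3 had 3 other inside peaks and 1 outside (306 bp, chr1:193278519-193278824).

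Chains of the other basement membrane laminins of skin had end peaks too. Lama5, the alpha chain of laminin-511, had one of 1606 bp over its start (chr2:180224704-180226309), also within 1 kb of the provisional gene Gm52542, and 3 inside peaks (widest 1428 bp, chr2:180205061-180206488). Of its 8 outside peaks the widest spanned 2704 bp (chr2:180234865-180237568). Lamb1 had 3 separate end peaks of 977, 285 and 210 bp, all within 1 kb of Gm32899 as well, and 5 inside peaks. Lamc1, the gamma chain shared by most laminins, had an end peak of 3003 bp at its upper bound and 9 inside peaks, none of which reached 1000 bp. Lamb2, the shortest of the genes at 10.7 kb, had a peak at each end, of 1302 and 986 bp, the second also within 1 kb of Usp19, and 0 inside peaks. It was the only member whose end peak also lay at an end of another protein-coding gene. Outside peaks numbered 5 at Lamb1, 4 at Lamc1 and 6 at Lamb2.

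Most leukocyte integrin genes had no peak at either end. An inside peak was found in 6 of the 10 leukocyte and platelet genes (60%). This was against 36.7% of all protein-coding genes and 54.8% of those at least 10684 bp long. Itgal, Itgax and Itgad, alpha partners of the Itgb2 product, had neither an end nor an inside peak, and their bounds lay 10369, 9891 and 31668 bp from the nearest peak. They were the only 3 of the 37 genes with no peak at an end or inside, a state found in 6861 of all 21887 protein-coding genes and in 2350 of the 13576 at least as long as the shortest member. Within 50 kb, Itgal had 5 peaks, all at the ends of other genes, Itgad had 4 and Itgax 1. That 1 peak of 276 bp (chr7:128119360-128119635) is also the end peak of Itgam, whose bound lies 869 bp away. It is at the far end of Itgam, whose RefSeq start lay 36818 bp from the nearest peak, and which had 0 inside peaks and 2 outside. Itgb2 itself had no end peak, the nearest peak lying 1330 bp from its lower bound, and 2 inside peaks of at most 714 bp. Itgae, the alpha chain of intraepithelial lymphocytes, had 2 inside peaks, of which the wider (1273 bp) was at an end of Haspin, and Itgb7, its partner, had 1 of 410 bp. Their outside peaks numbered 8 at Itgb2, 5 at Itgae and 7 at Itgb7.

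The platelet genes and Itga4 were the members of that list with more end and inside peaks. Itga2b had no end peak but 3 inside peaks over 16.6 kb, one of them 2610 bp wide and 1753 bp from the start, and 3 peaks outside. Itgb3, which also pairs with the Itgav product, had end peaks of 543 and 200 bp, 4 inside peaks of at most 434 bp and 9 outside. Itga4, an alpha chain of lymphocyte homing receptors that is also made by other cells, had an end peak of 1155 bp over its start, 4 inside peaks and 1 outside. It was the 1 gene of 5 in this list whose RefSeq start was given and had a peak within 1 kb. The 4 end peaks of leukocyte and platelet genes had a median width of 410 bp, against 1190 bp for end peaks of all protein-coding genes. Those of the epithelial list had a median of 1380 bp (18 peaks) and those of the other list 1150 bp (8 peaks).

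**Figure D3:**
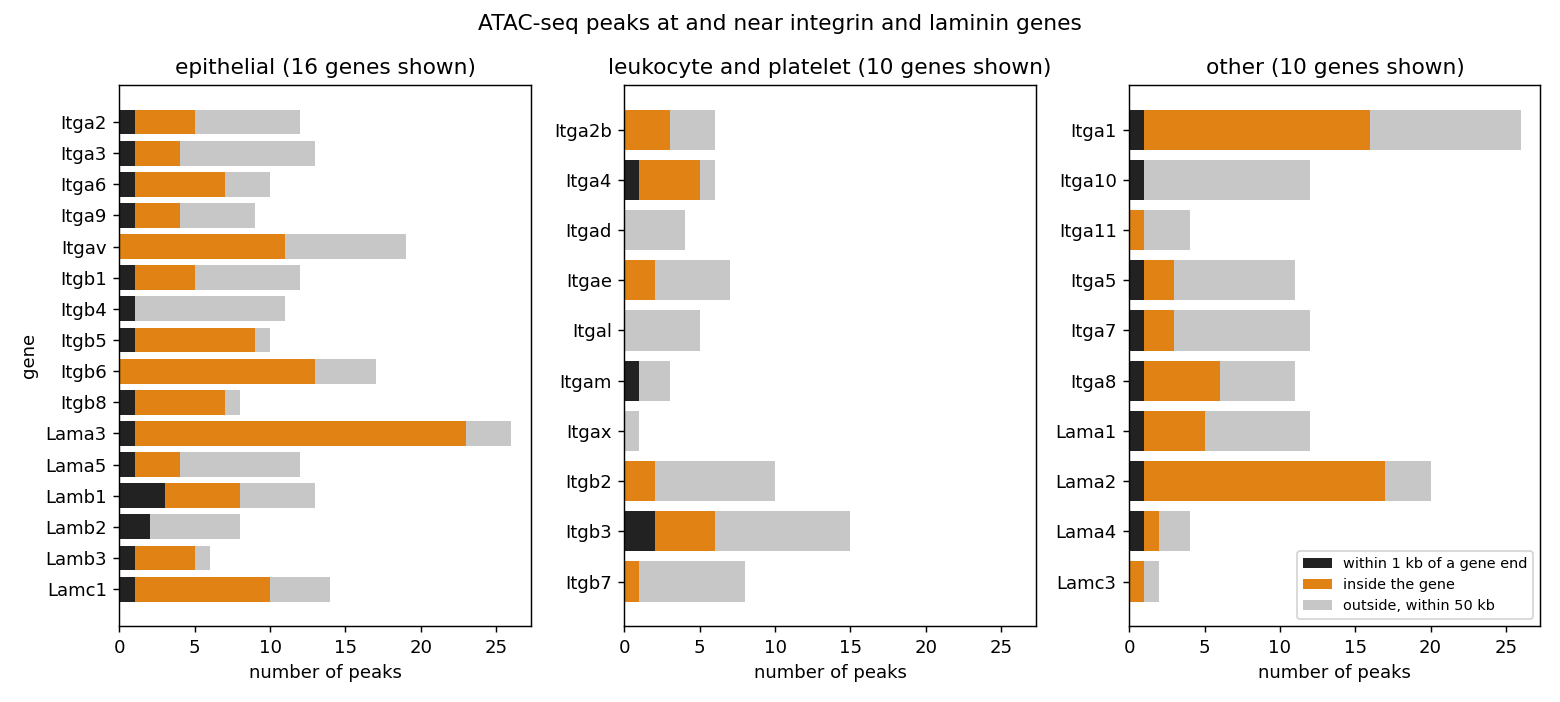
Number of peaks at each gene named in the text, split into peaks within 1 kb of a gene end (black), inside the gene (orange) and outside within 50 kb (grey), in panels for the epithelial, leukocyte and platelet, and other lists. Lama3 and Itga1 have the longest bars, at 26 peaks each, and Itgax the shortest, at 1.

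Among the other integrin alpha genes, Itga1 stood out by count. It spans chr13:114958079-115101964. Itga1, the alpha chain of a collagen receptor of mesenchyme, had an end peak of 1238 bp over its start (chr13:115101063-115102300) and 15 inside peaks over 144 kb. The widest of these, of 1304 bp (chr13:115089980-115091283), was also at an end of Pelo, a gene that lies within Itga1. The widest of its 10 outside peaks was the end peak of Itga2. Itga5, of the fibronectin receptor, and Itga8, of the receptor for nephronectin on arrector pili muscle, had end peaks of 763 and 1592 bp over their starts, with 2 and 5 inside peaks and 8 and 5 outside. That of Itga8 was also within 1 kb of E030013I19Rik. Itga7, a laminin receptor chain of muscle, had an end peak of 1224 bp, also within 1 kb of Gm46186, 2 inside peaks of 250 and 200 bp and 9 outside. The 838 bp end peak of Itga10, a collagen receptor chain of cartilage, was at the far end, its start lay 9534 bp from the nearest peak, and all 11 of its other peaks were outside. Itga11, a collagen receptor chain of fibroblasts, had no end peak and 1 inside peak of 269 bp that lay 85937 bp from its start, with 3 peaks outside.

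The remaining laminin genes held at most 3.19 inside peaks per 100 kb (Lama1). Those described above held 6.06 (Lama5) or more, apart from Lamb2 with 0. Lama1, of embryonic basement membranes, had an end peak of 1046 bp, 4 inside peaks over 126 kb and 7 outside. Lama2, the chain of muscle and nerve and the longest gene of the set at 636 kb, had 16 inside peaks, the widest 1796 bp (chr10:26995211-26997006). Its end peak of 1103 bp (chr10:26982177-26983279) was at its far end, also within 1 kb of Gm40618, and its start lay 16087 bp from the nearest peak. All 16 inside peaks lay more than 20 kb past that start, and the widest of 3 outside peaks spanned 812 bp (chr10:26949112-26949923). Lama4, of vessel and nerve, had an end peak of 1194 bp, 1 inside peak of 403 bp over 145 kb and 2 outside. Lamc3 had no end peak, 1 inside peak of 398 bp and 1 outside, with 16870 bp between its nearer bound and the closest peak.

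Where the RefSeq start was known, the end count and the start count named partly different genes. A peak lay within 1 kb of a start at 15 of 23 genes (65.2%), against 58.3% of the 17492 protein-coding genes in the promoter table. By list these were 11 of 12 epithelial genes, 1 of 5 leukocyte and platelet genes and 3 of 6 others. Of the 23, 13 had both an end and a start peak. Itgav and Itgb6 had only a start peak, and Itga9, Itga10, Itgam and Lama2 had only an end peak. The promoter windows of members with a peak within 1 kb had a median G+C share of 59.3% and a median ratio of observed to expected CpG of 0.504 (17 windows). Members' windows without one had 51.0% and 0.308 (9 windows). Over all protein-coding genes the medians were 61.3% and 0.766 with a peak, and 49.0% and 0.222 without. Within the epithelial list the ratio ranged widely among starts under a peak, with 0.798 at Itgb1, 0.280 at the inner start of Itgb6 and 0.0761 at the outer of the 2 starts of Lamb3.

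**Figure D4:**
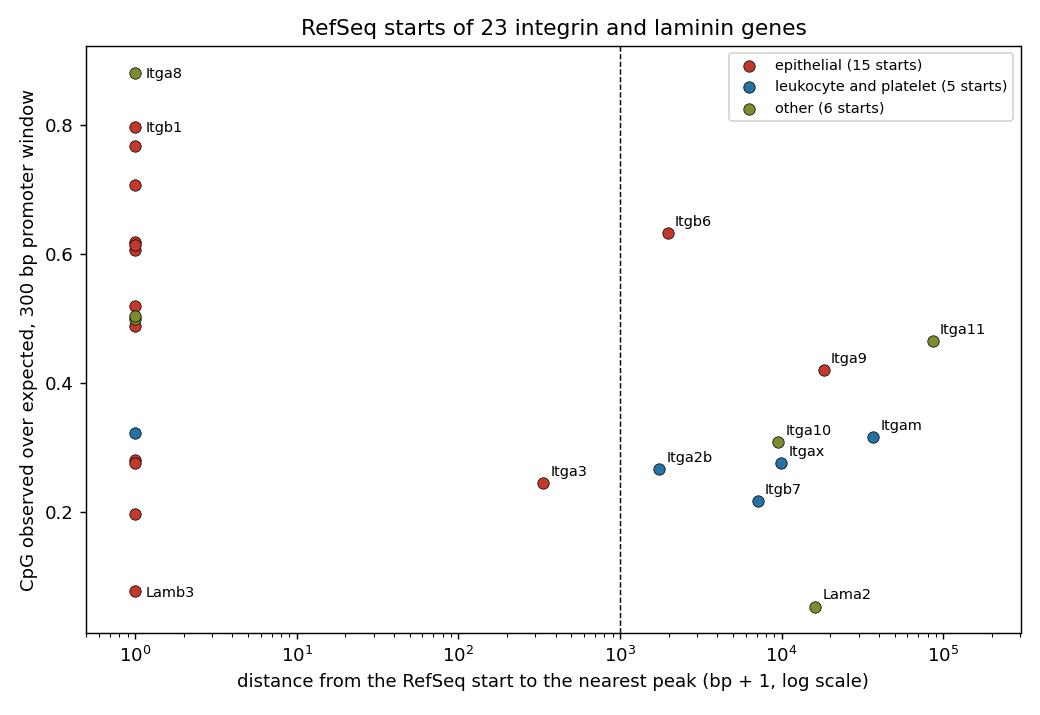
Ratio of observed to expected CpG in the 300 bp promoter window (y) against the distance from the RefSeq start to the nearest peak in bp plus 1 on a log scale (x) for 26 starts of 23 genes, coloured by list; the dashed line marks 1 kb. Starts at the left edge lie under a peak, and the 9 to the right of the line have no peak within 1 kb.

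Inside peaks were frequent in these genes, which are also long. An inside peak, with its midpoint between the gene bounds and no part in an end window, was found in 30 of the 37 genes (81.1%), against 36.7% of all protein-coding genes and 54.8% of those at least 10684 bp long. The median was 3 inside peaks per gene, against 0 over all protein-coding genes and 1 over those of at least 10684 bp, and the median length was 62.5 kb, against 17.2 kb over all. Per length, the 37 genes held 4.92 inside peaks per 100 kb (171 peaks), against 2.84 over all protein-coding genes. With only peaks of at least the list's median width, the median was 1, against 0 over all protein-coding genes, and the density 2.56 per 100 kb, against 1.37. Counting all peaks, the epithelial list held 6.82 per 100 kb, the leukocyte and platelet list 3.86 and the other list 3.18. An inside peak was present in 88.2%, 60% and 90% of their genes, in that order. The 5 genes with 10 or more (Lama3, Lama2, Itga1, Itgb6 and Itgav) held 77 of the 171, or 45.0%. Per 100 kb, the highest value of the 37 genes was 18.1 at Itga2b, from 3 inside peaks over 16.6 kb. Among genes over 60 kb, values reached 13.0 at Itgav, 10.5 at Itgb6 and 10.4 at Itga1. Itga9 with 1.02, Itga11 with 0.942 and Lama4 with 0.691 were the lowest of that size. The genes with no inside peak were Itgb4, Lamb2, Itga10, Itgad, Itgal, Itgam and Itgax. Of 111 inside peaks in genes with a known start, 5 lay before the first start by midpoint, 35 within 20 kb after it and 71 farther in. The 5 include the peak that covers both starts of Lamb3.

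**Figure D5:**
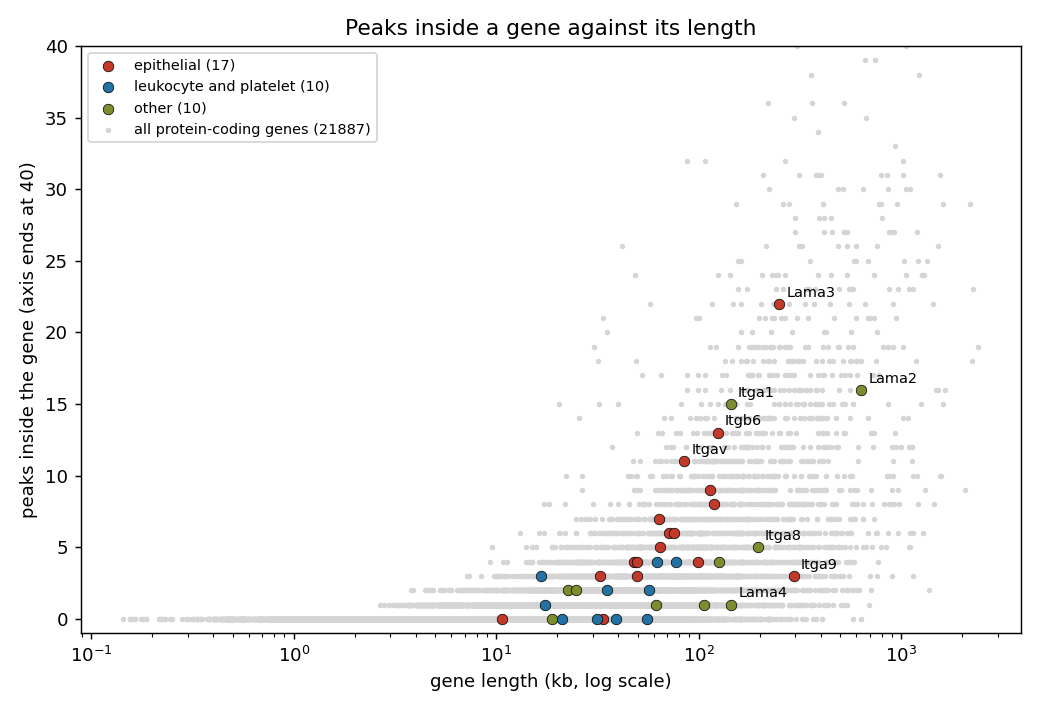
Number of peaks inside a gene (y, cut at 40) against gene length in kb on a log scale (x), for the 17 epithelial, 10 leukocyte and platelet and 10 other genes and for all 21887 protein-coding genes (grey). Itgav, Itgb6, Itga1 and Lama3 hold 11, 13, 15 and 22 inside peaks, while Itga9 holds 3 over 294 kb and Lama4 1 over 145 kb.

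Inside peaks of epithelial genes had a median width of 795 bp (108 peaks), against 422 bp in the leukocyte and platelet list (16), 452 bp in the other list (47) and 569 bp in all protein-coding genes. Dense runs of 10 or more peaks with gaps under 12.5 kb overlapped 3 of the 37 genes (8.11%), against 3.41% of all protein-coding genes, and all 3 are epithelial. The run at Lama3 is given above. That at Itgav (chr2:83713990-83771739) held 12 peaks, 11 of them inside the gene, and that at Itgb1 (chr8:128645466-128705308) held 11, of which 5 had their midpoint inside it. Long genes have more room to meet such a run, and gene length was not held equal in these shares.

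Peaks outside the genes were shared with neighbours. All 37 genes had at least 1 peak within 50 kb, with a median of 5, against 3 over all protein-coding genes. This median moved with every alternative tried: it was 2, the same as the 2 over all protein-coding genes, with only peaks of at least the list's median width, and 3, against 2, without peaks at the end of another gene. It was 2, against 1, within 20 kb, 10, against 7, within 100 kb, and 1, against 0, when only peaks nearest to the gene's own end counted. Of 190 such pairs of a peak and a gene, 47 (24.7%) had that gene's end as the nearest protein-coding end, and 15 of the genes had none of their own by that measure. Itgb1 with 7 and Itga1 with 6 had the most. By list the median was 5 in epithelial genes, 4.5 in leukocyte and platelet genes and 6 in others. The lists that differed in the share of genes with an end peak therefore lay close together here.

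The same end peaks can be set side by side by complex, with the complexes chosen after the values were seen. Of 24 integrin pairs known in mammals, 11 had an end peak at both genes. The pairs share chains, so this count restates the genes given above and is not compared with other genes: 10 of the 11 rest on the 1 end peak of Itgb1, and Itgb2 itself had none. The 11 were the pair of Itga6 with Itgb4 and 10 of the pairs with Itgb1. In 5 pairs neither gene had one: Itgae with Itgb7, Itgal, Itgax and Itgad with Itgb2, and Itgav with Itgb6, the last with 24 inside peaks in both genes together. The 5 laminin trimers examined (Lama5 with Lamc1 and either Lamb1 or Lamb2, and Lama1, Lama2 or Lama4 with Lamb1 and Lamc1) had an end peak at every chain, which follows from their choice, since none of them holds Lamc3, a chain gene with no end peak. Of the adhesion and basement membrane genes drawn up as partners, 34 of 39 (87.2%) had an end peak. This was against 57.6% of all protein-coding genes and 66.2% of those at least 10684 bp long. The median length was 71.5 kb for the partners and 17.2 kb over all protein-coding genes. Without peaks at the end of another gene the count was 21 of 39, against 36.8% of all protein-coding genes. The 34 comprised 4 of 4 hemidesmosome genes, 11 of 15 integrin adaptor genes, 15 of 15 basement membrane genes and 4 of 5 other ligand genes. Those without were the adaptors Fermt3, of blood cells, Parvg, also of blood cells, Parvb and Lims2, and the ligand gene Spp1 (osteopontin). The partners with most end and inside peaks were Dst, a hemidesmosome plakin, with 32, Tnc (tenascin-C, a ligand of the Itga9 product) with 19, the collagen IV gene Col4a6 with 17, and Col4a2 and Fras1 with 14 each. Npnt, which encodes nephronectin, the ligand of the Itga8 product, had 3 end and 5 inside peaks.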

How the data were processed

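Hair follicle stem cells of 2 genotypes were profiled by ATAC-seq, with 1 library per genotype in 2 runs each. The authors deposited 1 list of region coordinates on mm10, with no score, count or sample. The tools named are bedtools, Bowtie2 and MACS2, per the submitters' processing notes. The versions, the settings, the filters on reads, a shift for Tn5 and the pooling of reads before calling are, for these data, not given in the sources used here. Starts were converted to 1-based positions. All 37 genes of the rule were counted, with no filter; 1 of them is not reported by name here.

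Genes came from the RefSeq table of GRCm38.p6, the assembly that mm10 names. It gives bounds without strand, so either bound is an end. Starts and strands came from the RefSeq promoter table where it lists a gene. A peak was put for each gene in the first class that held: end (sharing 1 base with the window of 1000 bp on either side of a bound), inside (midpoint between the bounds), outside (midpoint within 50000 bp of a bound). The same peak can count for several genes. The planned results were descriptions with no test. Alternatives were other windows, midpoints, wide peaks only, and peaks at no other gene's end. Counting was tested on simulated data. Python 3.11.15, numpy 2.4.6 and pandas 2.3.3 were used. Columns of per-sample values left unused numbered 0.

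The genes, lists and measures were chosen with earlier results of these data known. Named were the members otherwise, the partners with no end peak and the 5 with most end and inside peaks, other genes with an end within 1 kb of a described peak, and the widest peaks of a set of epithelial genes and of the 3 members with most inside peaks. Npnt, the complexes, the dense runs and single sequences were added after values were seen.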

Additional observations from a re-analysis of the deposited data

How the results depend on the processing

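The count of 37 genes with an end peak ranged from 21 to 30 under 5 alternatives, and stayed above the share of all protein-coding genes in each. That of the epithelial list ranged from 13 to 17. In the main count, the share was 70.3% for the 37 genes and 66.2% for genes at least as long as the shortest of them. The share for such long genes was not computed under the alternatives. With end windows of 2500 bp, Itgav, Itgb6, Itga2b and Itgb2 gained an end peak. The leukocyte and platelet list then had 5 of 10 in place of 3, against 63.5% of all protein-coding genes. With only peaks at or above the median width that list had 1 of 10, against 51.6% of all protein-coding genes. The median of inside peaks was then 1 and their density 2.56 per 100 kb (1.37 over all protein-coding genes). The median outside was 2, the same as the 2 over all protein-coding genes. Leaving out peaks at the end of any other gene, the other list had 5 of 10, the partners 21 of 39 and the median outside was 3, against 36.8% with an end peak over all protein-coding genes. Outside medians were 2 with 20 kb, 10 with 100 kb and 1 when only the nearest end counted, against 1, 7 and 0 over all protein-coding genes. Counts of genes with a start or an inside peak moved by less than 1.5 times. Narrower windows and restricted sets of peaks hold fewer peaks by construction, and other causes were not tested.

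With no read depth and no genotype per peak, a gene without a peak cannot be called closed, and the genotype behind a peak is unknown. There was no replicate to leave out, and no paired analysis was possible because the list holds no values per sample.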
